A study of Caenorhabditis elegans with 14 samples.

Results

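The ERGO class 26G siRNAs were examined in whole gravid hermaphrodites of Caenorhabditis elegans, as normalised read counts (rpm, reads scaled to the size of each library) assigned to each target gene. Members were all 123 target genes that the small RNA annotation used for these libraries places in the class ERGO Class 26G, out of 23869 features listed; each gene's value sums antisense reads of 26 nt that begin with G. The groups were pash-1(ram33) mutants and wild type (N2) at 25 °C (54 h from synchronized first-stage larvae, n = 4 libraries each), and pash-1(ram33) mutants and wild type (N2) at 20 °C (72 h, n = 3 libraries each), all fed E. coli OP50. The ram33 allele replaces a glycine of PASH-1 with arginine, and its strain descends from a single mutagenized line that was outcrossed to wild type. PASH-1 is the partner of Drosha in the Microprocessor, which cuts primary miRNA transcripts. Because each library came from whole animals, fewer cells of a type and less RNA per cell cannot be told apart. The study describes the libraries of a group as biological replicates, and every p-value below sets a difference against the spread between them. The limma tests (linear models) below pool part of that spread over features.

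ERGO class 26G siRNAs are primary siRNAs: the RNA-dependent RNA polymerase RRF-3 copies a target transcript, Dicer cuts the product, and the Argonaute ERGO-1 carries the siRNA in oocytes and embryos. The methyltransferase HENN-1 protects their 3′ ends. Their targets are known to include many pseudogenes, non-coding transcripts and members of duplicated gene families, and target recognition prompts other RNA-dependent RNA polymerases to make secondary 22G siRNAs, which WAGO Argonautes carry. The ALG class 26G siRNAs form a separate family, bound by ALG-3 and ALG-4 during sperm production.

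The members differed widely in level and few carried most of the class. Of the 123 members, 27 were at 0 in every library and 57 were above 0 in all 14 libraries. A mean of at least 1 rpm was reached by 48 members at 20 °C and 46 at 25 °C, 45 of them at both; the other 74, below 1 rpm at both temperatures, together held 0.417% of the class total in mutants and 0.337% in wild type at 25 °C, and 0.340% in mutants and 0.404% in wild type at 20 °C. Values below pertain to the members that passed this filter unless stated otherwise. Of the members with at least 1 rpm at either temperature, 19 of 49 (38.8%) were annotated pseudogenes and 23 (46.9%) protein-coding genes, while 10 of the 74 members below that level were pseudogenes (13.5%). Over all 123 members, with no level filter, 29 were pseudogenes (23.6%). Across all genes listed for the WAGO class 22G siRNAs, also with no level filter, the pseudogene share was 11.2%, and for the ALG class it was 0.786%. Chromosome V carried 12 of the 49, which held 58.8% of the class rpm averaged over all libraries.

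The 5 most abundant members held between 56.5% and 58.1% of the class in every library. Positions are from the Ensembl annotation of assembly WBcel235 and levels compared between genes are rpm per kb of annotated exon. Y17D7C.3, a pseudogene at chrV:18720589-18723771 on the minus strand, had 353 rpm per kb in mutants and 309 in wild type at 25 °C and 469 in mutants and 250 in wild type at 20 °C. T05E12.10, a non-coding RNA gene at chrV:17072946-17073958 on the plus strand, had 333 rpm per kb in mutants and 259 in wild type at 25 °C, and 391 in mutants and 297 in wild type at 20 °C. Among members with annotated exons these 2 had the highest rpm per kb in every group, Y17D7C.3 higher except in wild type at 20 °C, where T05E12.10 was higher. F39E9.7, a pseudogene at chrII:3306144-3307505, Y116F11A.1, a protein-coding gene at chrV:19730580-19732242, and K02E2.6, a protein-coding gene at chrV:20380561-20382036, lay between 38.4 and 118 rpm per kb in every group.

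Some members lay beside each other. With a gap of at most 20 kb between neighbours, 23 of the members above 1 rpm at either temperature fell into 11 groups. Whether this is more than for other genes of the genome was not tested. F55C9.3 and F55C9.5 lay within 6.12 kb on chromosome V, F39E9.10 and F39E9.7 within 4.75 kb on chromosome II, K02E2.6 and K02E2.11 within 3.85 kb on chromosome V, and ZK402.5, ZK402.3 and ZK402.2 within 5.29 kb on chromosome X. T16A1.9, T25G12.8 and ZC132.4 had no entry in that annotation. Similar genes may share reads, and 12 members, none above 1 rpm, had values identical to another member in all libraries. How far the more abundant members share reads was not tested.

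**Figure D1:**
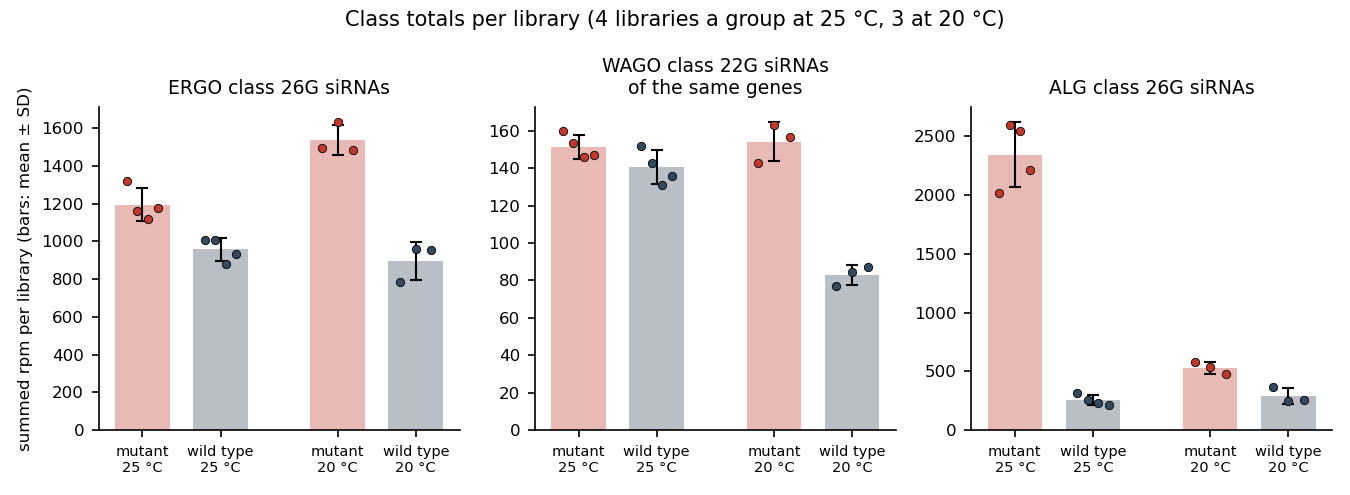
Summed rpm per library of the ERGO class 26G siRNAs (left), the WAGO class 22G siRNAs of the same genes (middle) and the ALG class 26G siRNAs (right); points are libraries, bars are means and error bars are SD, with 4 libraries a group at 25 °C and 3 at 20 °C. The ERGO totals of mutants lie above those of wild type at both temperatures, while the secondary siRNAs overlap at 25 °C.

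As rpm, the class total was higher in mutants at both temperatures. At 20 °C it was 1495, 1631 and 1487 rpm in mutants, against 782, 957 and 956 rpm in wild type, a difference of 71.1% of the wild-type mean with no overlap (two-sided exact permutation test, p = 0.1, the smallest that 3 against 3 libraries allow). At 25 °C it was 1319, 1162, 1120 and 1175 rpm in mutants, against 1008, 1006, 881 and 935 rpm in wild type, a difference of 24.7% with no overlap (exact permutation p = 0.029). Rescaling by median-of-ratios size factors, a factor per library that centres the typical feature, left the total of mutants 33.05% above wild type at 20 °C (exact permutation p = 0.1) and turned it to 16.9% below at 25 °C (exact permutation p = 0.029). Scaled to the piRNA total, the difference was -35.38% at 25 °C and 40% at 20 °C. Mutant libraries held fewer miRNA reads, 727043 rpm against 835943 rpm in wild type at 25 °C and 751698 against 806333 rpm at 20 °C. All listed features together held 812424 to 861432 rpm in mutants and 898606 to 903722 rpm in wild type at 25 °C. Rpm are shares of a library, so a lower share of 1 class can raise those of others. How far this bears on the ERGO total was not tested. Since the direction turned with the scaling, a direction at 25 °C is given below only with its scaling.

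Ratios within a library do not depend on scaling. The log2 ratio of ERGO to ALG class 26G totals at 25 °C was -0.97 ± 0.27 in mutants and 1.93 ± 0.19 in wild type (SD, n = 4 each; difference -2.90, exact permutation p = 0.029), so that ALG siRNAs outnumbered ERGO siRNAs only in the mutant libraries at 25 °C. At 20 °C it was 1.54 ± 0.14 in mutants and 1.65 ± 0.49 in wild type (SD, n = 3 each; difference -0.11, exact permutation p = 0.8). The ALG total itself was 2343 ± 276 rpm in mutants and 254 ± 44.4 rpm in wild type at 25 °C (SD, n = 4 each), and 528 ± 49.1 rpm in mutants and 290.0 ± 68.1 rpm in wild type at 20 °C (SD, n = 3 each). The share held by the 5 most abundant members at 25 °C was 56.8 ± 0.263% in mutants and 57.7 ± 0.337% in wild type (exact permutation p = 0.029, n = 4 each); without Y17D7C.3 this difference turned round to 0.395 percentage points (exact permutation p = 0.371, n = 4 each). At 20 °C the share was 57.1 ± 0.260% in mutants and 56.8 ± 0.276% in wild type (exact permutation p = 0.5, n = 3 each).

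Levels of some other markers moved with the groups. The summed embryonic miRNAs miR-35-3p to miR-41-3p, which are also substrates of the Microprocessor, were at 58151 to 69631 rpm in mutants and 191067 to 214582 rpm in wild type at 25 °C, and at 90015 to 102026 rpm in mutants and 168081 to 187007 rpm in wild type at 20 °C. Not all of them moved at 20 °C. There miR-38-3p averaged 249 rpm in mutants and 250 rpm in wild type, and miR-40-3p 4582 and 4577 rpm, both overlapping. The others of this sum were lower in mutants at 20 °C with no overlap. The piRNA total, a germline measure, was 73966 to 85750 rpm in mutants and 39460 to 44540 rpm in wild type at 25 °C, and 87831 to 100531 rpm in mutants and 71730 to 81153 rpm in wild type at 20 °C. The total of the CSR class 22G siRNAs, also a germline class, went the other way at 25 °C. It was 12996 to 14623 rpm in mutants and 14907 to 17553 rpm in wild type at 25 °C. At 20 °C it was 14990 to 16697 rpm in mutants and 12847 to 14240 rpm in wild type. The body wall muscle miRNA miR-1-3p overlapped between strains at both temperatures. The part of embryo number, germline amount or sperm production in the differences of the ERGO class was not tested. Depth was estimated from the step between low piRNA values, which put 1 read at 0.0426 to 0.0608 rpm in every library. The mutation changes a residue, so no transcript level checks it here.

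**Figure D2:**
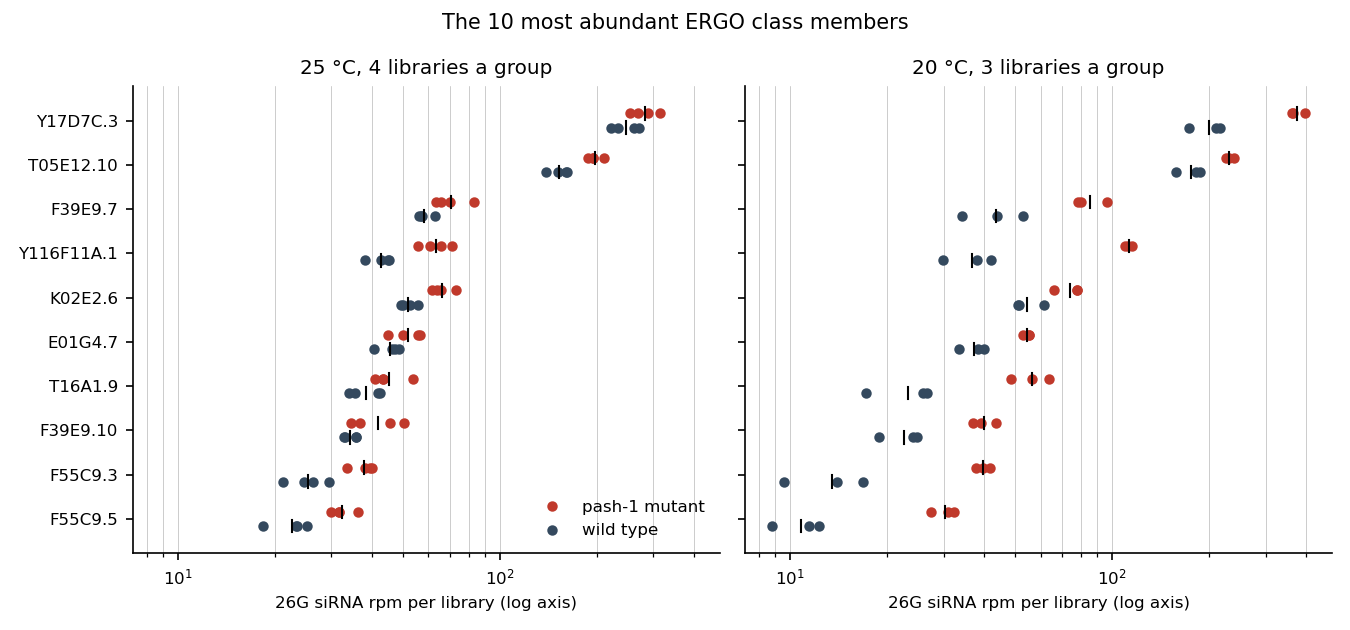
Rpm as deposited of the 10 members with the highest mean, in each library at 25 °C (left) and 20 °C (right) on a log axis; red points are mutant libraries, dark points wild-type libraries and black ticks group means. At 20 °C the strains do not overlap for any of the 10, with the widest gap at Y116F11A.1 and the F55C9 genes.

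At 20 °C, after rescaling within temperature, members that changed were nearly all higher in mutants. Of 48 members tested, 16 rose and 1 fell, F52D2.6 (limma, Benjamini-Hochberg adjusted p under 0.05), where 2.06% of all 7034 features rose and 3.84% fell. The median log2 fold change was 0.42 over the members and -0.01 over all features. As deposited, the rpm means of 47 of the 48 members were higher in mutants, by a median of 1.73-fold, and 38 rose and 0 fell (limma; 0 at an unadjusted p under 0.05), where 22.7% of all features rose and 1.81% fell. On the piRNA total 17 rose and 1 fell (2.97% and 3.01% of features), and with size factors from the CSR class 22G siRNAs, a germline class, 13 rose and 0 fell (1.28% and 1.68%). Scaling to deposited rpm, to the piRNA total or to the CSR class 22G siRNAs left 13 of the 16 called as higher in each. The count fell to 8 without the trend and robust options of limma. The share of all features called without them is not given here, so this count has no background beside it. The libraries of the strains did not overlap for 43 members as deposited, all higher in mutants, and after rescaling for 28 higher and 1 lower (36.6% of features higher and 2.86% lower as deposited, 9.84% and 12.6% after rescaling).

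The members that rose did so unequally. Y116F11A.1 was at 112, 115.7 and 110 rpm in mutants, against 29.9, 41.9 and 38.2 rpm in wild type. The mutant libraries all lay far above the highest wild-type library, and its log2 fold change was 1.26 ± 0.12 (SE; adjusted p = 2.29e-10). F55C9.3 was at 37.7, 41.9 and 39.9 rpm in mutants, against 9.56, 14.01 and 16.9 rpm in wild type (log2 fold change 1.23 ± 0.15, adjusted p = 6.09e-08). Its neighbour F55C9.5 was at 30.9, 32.3 and 27.5 rpm in mutants, against 8.77, 11.5 and 12.3 rpm in wild type (1.12 ± 0.14, adjusted p = 3.42e-07), so both genes of this pair stood apart between the strains. Among members of lower level, C11G6.2 was at 4.49, 3.85 and 3.44 rpm in mutants, against 0.76, 1.15 and 1.5 rpm in wild type (1.40 ± 0.28, adjusted p = 5.82e-04). WBGene00194667, a pseudogene beside Y105C5A.14, was at 7.76, 6.90 and 8.51 rpm in mutants, against 1.95, 2.07 and 2.75 rpm in wild type (1.39 ± 0.21, adjusted p = 8.76e-06). Y43F8B.9 was at 3.68, 4.67 and 3.73 rpm in mutants, against 1.22, 1.17 and 1.37 rpm in wild type (1.25 ± 0.26, adjusted p = 8.41e-04). None of these 6 overlapped between the strains.

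The 2 most abundant members took different courses. Y17D7C.3 was at 363, 398 and 361 rpm in mutants, against 173, 216 and 209 rpm in wild type, with no overlap (0.55 ± 0.10, adjusted p = 1.34e-04). T05E12.10 was at 230, 239 and 225 rpm in mutants, against 157, 183 and 188 rpm in wild type. As rpm these did not overlap, yet after rescaling the log2 fold change was 0.03 ± 0.10 (adjusted p = 0.892). K02E2.6 behaved in the same manner, at 66.2, 77.9 and 78.0 rpm in mutants, against 51.0, 61.3 and 51.4 rpm in wild type (0.07 ± 0.12, adjusted p = 0.783). E01G4.7, a pseudogene, was at 52.9, 55.2 and 55.3 rpm in mutants, against 33.5, 38.4 and 40.04 rpm in wild type (0.18 ± 0.12, adjusted p = 0.419). For these 3 members the strains stood apart as rpm, but not by the test after rescaling.

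F39E9.7 was at 80.1, 96.7 and 78.5 rpm in mutants, against 34.2, 43.9 and 53.1 rpm in wild type (0.61 ± 0.12, adjusted p = 6.44e-04). T16A1.9 was at 56.4, 63.8 and 48.7 rpm in mutants, against 17.2, 25.9 and 26.7 rpm in wild type (0.93 ± 0.14, adjusted p = 6.80e-06). Neither overlapped between the strains. F39E9.10, a long non-coding RNA beside F39E9.7, was at 37.1, 43.7 and 39.2 rpm in mutants, against 18.9, 24.8 and 24.1 rpm in wild type (0.47 ± 0.13, adjusted p = 0.020). Leaving out any mutant library or wild-type replicate 1 lost this call, with log2 fold changes of 0.37 to 0.55 over all such fits. T02G6.4 was at 3.77, 4.56 and 4.31 rpm in mutants, against 1.71, 1.08 and 1.67 rpm in wild type (1.12 ± 0.25, adjusted p = 0.0034).

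F52D2.6 was the exception. It was at 29.2, 29.2 and 29.8 rpm in mutants, against 29.6, 33.4 and 36.1 rpm in wild type, overlapping as deposited, and after rescaling it fell by 0.53 ± 0.12 on the log2 scale (adjusted p = 0.0045) with no overlap. The call was lost on deposited rpm, with the CSR class 22G size factors and without the trend and robust options. Relative to the class total of each library, a scaling chosen after seeing the data, 10 members were higher and 3 were lower in mutants at 20 °C: F52D2.6 at -0.94, T05E12.10 at -0.38 and K02E2.6 at -0.34 on the log2 scale (0.768% of all features were higher and 32.7% lower on that scale, on which the typical feature of other classes was lower). The 10 were C11G6.2, WBGene00194667, Y43F8B.9, Y116F11A.1, F55C9.3, T02G6.4, F55C9.5, T16A1.9, C40A11.10 and C01A2.1, at 0.44 to 1.00.

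**Figure D3:**
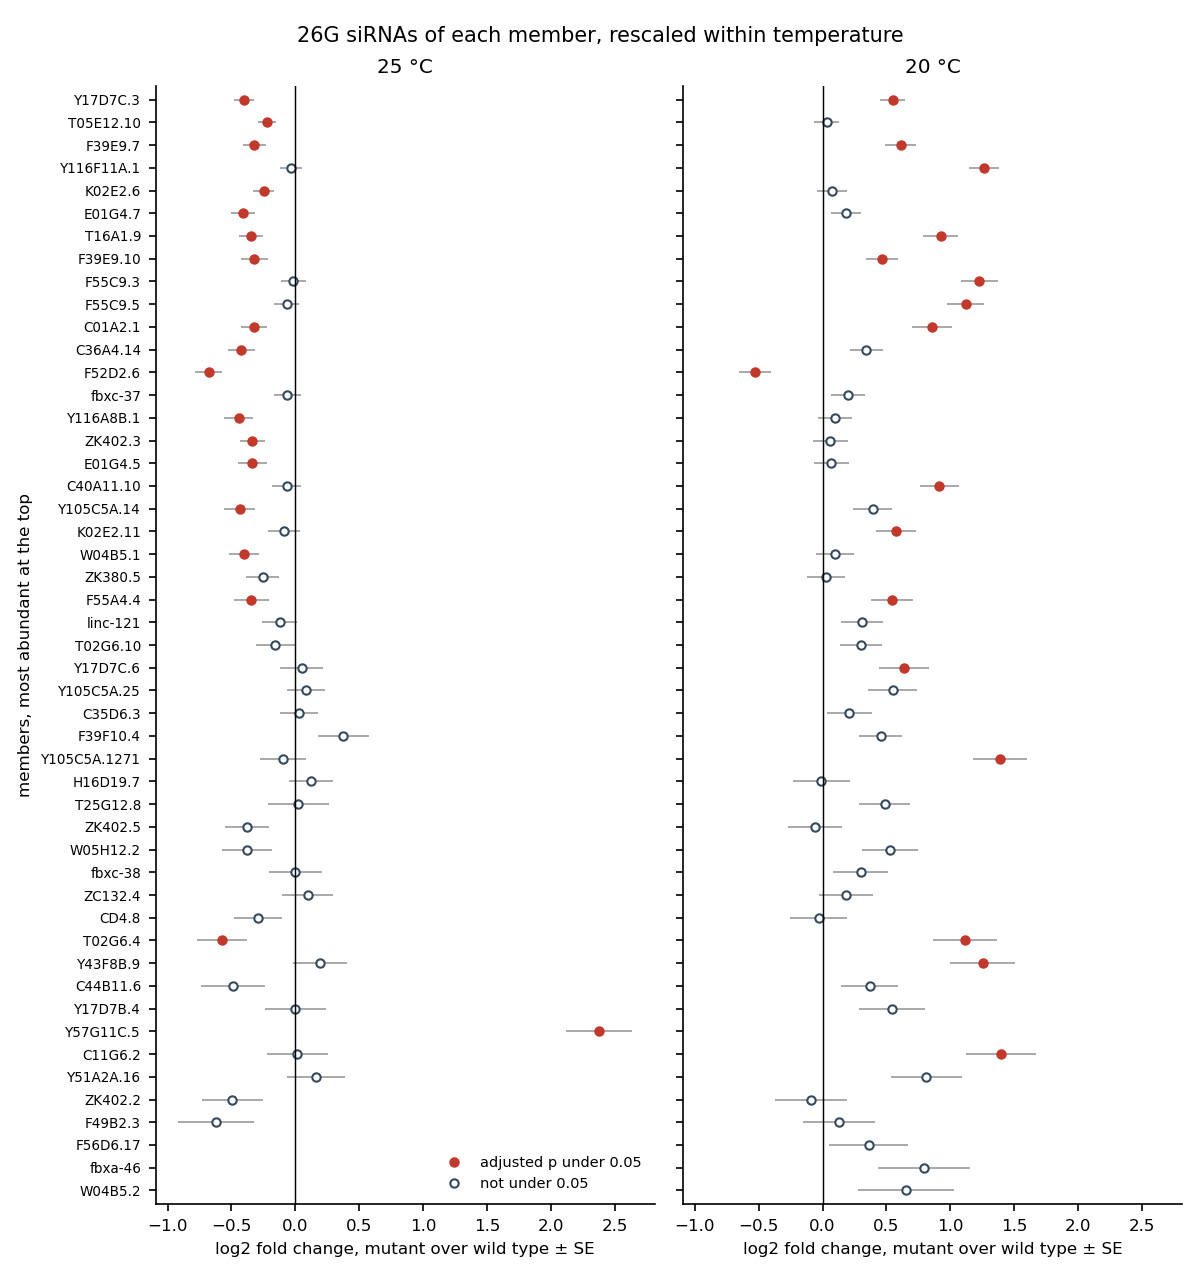
Log2 fold change (mutant over wild type) ± SE of each member with a mean of at least 1 rpm, after rescaling within temperature, at 25 °C (left) and 20 °C (right), most abundant member at the top; filled points passed the adjusted p threshold. At 20 °C the called members lie right of 0 except F52D2.6, and at 25 °C they lie left of 0 except Y57G11C.5. Y57G11C.5 passed the level filter only through the mutant libraries, so its point is a description and not a test.

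At 25 °C the direction of the class depended on the scaling. After rescaling, 1 member of 46 rose and 17 fell, where 33.6% of all 7070 features rose and 39.3% fell, so the share that fell was close to that background. The member that rose, Y57G11C.5, passed the level filter only through the mutant libraries. The median log2 fold change was -0.23 over the members and -0.04 over all features. On rpm as deposited 30 rose and 0 fell (limma; 0 at an unadjusted p under 0.05), where 51.9% of features rose and 13.3% fell, and with the CSR class 22G size factors 41 rose and 0 fell (0 unadjusted), where 58.3% rose and 3.9% fell. On the piRNA total 1 rose and 33 fell, where 19.0% rose and 49.3% fell. Deposited rpm means were higher in mutants for 43 of the 46 members, by a median of 1.28-fold, and the libraries did not overlap for 23, all higher in mutants, or after rescaling for 1 higher and 11 lower (47.1% of features higher and 10.1% lower as deposited, 28.2% and 33.7% after rescaling). Relative to the class total 2 rose, 1 of them Y57G11C.5, and 1 fell (42.8% and 28.4% of features).

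F52D2.6 fell by 0.68 ± 0.11 on the log2 scale after rescaling (adjusted p = 3.15e-06). It was at 14.5, 13.96, 13.8 and 13.9 rpm in mutants, against 14.8, 14.2, 13.8 and 17.4 rpm in wild type, and overlapped as deposited. Y17D7C.3 was at 315, 270, 254 and 288 rpm in mutants, against 262, 270, 222 and 233 rpm in wild type, overlapping as deposited and lower in every mutant library after rescaling (-0.40 ± 0.08, adjusted p = 4.59e-05). T02G6.4 was at 2.64, 2.70, 2.32 and 2.98 rpm in mutants, against 2.88, 2.40, 2.52 and 2.89 rpm in wild type (-0.58 ± 0.19, adjusted p = 0.0097). E01G4.7 was at 56.5, 45.0, 50.2 and 55.7 rpm in mutants, against 48.7, 47.4, 40.6 and 46.2 rpm in wild type (-0.41 ± 0.09, adjusted p = 2.55e-04). Y116A8B.1 and Y105C5A.14 likewise overlapped as deposited, with rescaled log2 fold changes of -0.44 ± 0.11 and -0.44 ± 0.12 (adjusted p = 9.77e-04 and 0.0021). On deposited rpm, Y17D7C.3 was higher in mutants by 0.19 on the log2 scale (adjusted p = 0.035), E01G4.7 by 0.18 (adjusted p = 0.101), and F52D2.6 was not called.

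Among the members with the largest increases at 20 °C, Y116F11A.1 and F55C9.3 were near 0 at 25 °C after rescaling. Y116F11A.1 was at 71.0, 65.6, 60.5 and 55.7 rpm in mutants, against 42.9, 45.3, 44.9 and 38.1 rpm in wild type. These did not overlap as deposited, and the rescaled log2 fold change was -0.03 ± 0.09 (adjusted p = 0.753). F55C9.3 was at 39.5, 33.5, 38.0 and 40.03 rpm in mutants, against 29.5, 26.4, 21.3 and 24.7 rpm in wild type (-0.02 ± 0.10, adjusted p = 0.893). T05E12.10, which was not called at 20 °C, was at 211, 195, 188 and 195 rpm in mutants, against 160, 151, 139 and 162 rpm in wild type, higher in every mutant library as deposited and -0.22 ± 0.07 after rescaling (adjusted p = 0.0066).

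Y57G11C.5 had the highest ratio of mutant to wild-type rpm among the members tested at 25 °C. It is annotated as a protein-coding gene at chrIV:14761803-14765436 on the minus strand. It was at 6.18, 7.69, 5.63 and 4.09 rpm in mutants, against 0.80, 0.77, 0.91 and 0.34 rpm in wild type, with no overlap. At 20 °C it was at 0.78, 1.17 and 0.84 rpm in mutants, against 0.43, 0.36 and 0.34 rpm in wild type, under the level filter and so untested. Since it passed the filter at 25 °C through the mutant libraries alone, its fold change is given as a description, 8.37 as a ratio of rpm means. The ALG class total, which uses no level filter, was also higher in mutants at 25 °C, with means of 2343 rpm in mutants and 254 rpm in wild type. The part of the sperm-producing germline in the level of Y57G11C.5 was not tested.

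The genotype effect differed between temperatures for many members. In a fit over all 14 libraries with size factors within each temperature, the log2 fold change was more negative at 25 °C for 23 of 45 members and more positive for 0 (0 at an unadjusted p under 0.05), where 22.5% of all 6396 features were more negative and 15.5% more positive. The median interaction was -0.59 over the members and -0.08 over all features. The largest were at T02G6.4 (-1.69, adjusted p = 7.04e-05), WBGene00194667 (-1.48, adjusted p = 9.90e-05), C11G6.2 (-1.38, adjusted p = 0.0034), Y116F11A.1 (-1.29, adjusted p = 1.88e-08) and T16A1.9 (-1.27, adjusted p = 5.21e-07). On the piRNA total 39 were more negative and 0 more positive (0 unadjusted; 40.7% and 3.55% of features). On deposited rpm 16 were more negative and 0 more positive (0 unadjusted; 12.7% and 22.5% of features), but with the CSR class 22G size factors 3 were more negative and 4 more positive (1.64% and 43.3%). Relative to the class total, 7 members were more negative, T02G6.4, WBGene00194667, Y116F11A.1, T16A1.9, F55C9.3, F55C9.5 and C01A2.1, and 3 were more positive, T05E12.10, F52D2.6 and H16D19.7 (1.64% and 42.8% of features).

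**Figure D4:**
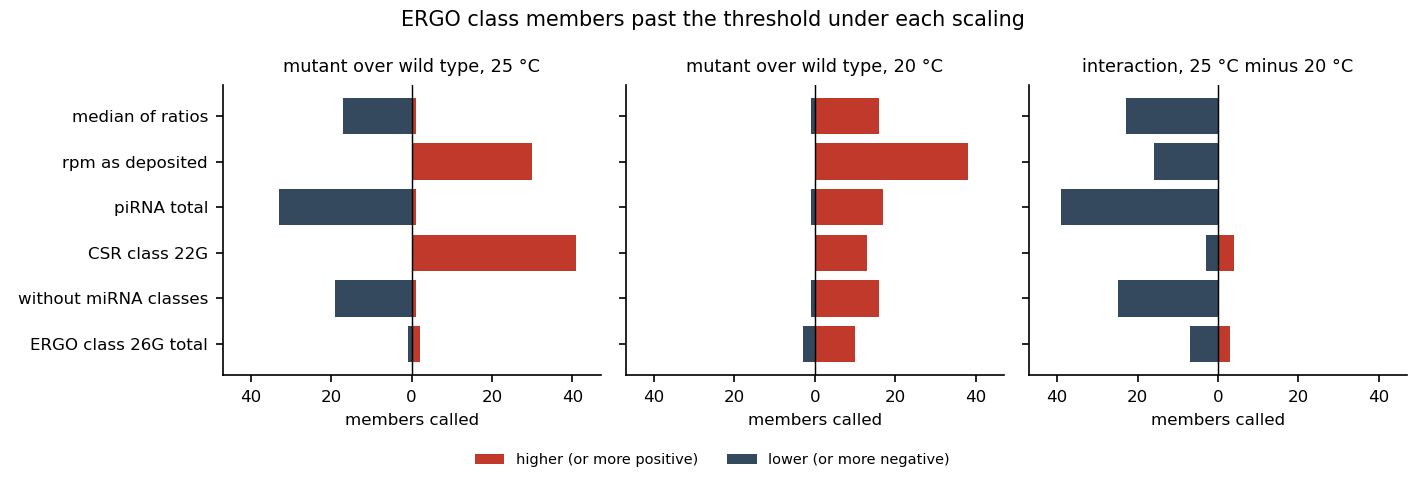
Number of members past the adjusted p threshold in each direction (red right, higher or more positive; dark left, lower or more negative) under 6 scalings, for the strain difference at 25 °C (left), at 20 °C (middle) and the interaction (right). At 20 °C the red bars exceed the dark bars under each scaling shown, and at 25 °C the side changes with the scaling.

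Levels at the temperatures were set side by side without a test, because each temperature has its own table, and temperature, growth time and batch cannot be told apart. In mutants the class total was 1194 ± 86.4 rpm at 25 °C (SD, n = 4) and 1538 ± 80.8 rpm at 20 °C (SD, n = 3), and the libraries did not overlap. In wild type it was 958 ± 61.4 rpm at 25 °C (SD, n = 4) and 898 ± 101 rpm at 20 °C (SD, n = 3), and they overlapped. Of 45 members above 1 rpm at both temperatures, 43 had a lower mean at 25 °C in mutants, by a median ratio of 0.725. In wild type 25 had a lower and 20 a higher mean at 25 °C. The share of all features that were lower at 25 °C is not given here. Other class totals of mutants also moved between temperatures with no overlap. Ratios of 25 °C to 20 °C were 0.861 for CSR class 22G siRNAs and 0.846 for piRNAs. They were 4.43 for ALG class 26G siRNAs, 1.12 for WAGO class 22G siRNAs and 2.03 for miRNA precursor reads. Whether the fall was particular to the members was not tested. F55C9.5 had the highest wild-type ratio, with 22.6 ± 2.92 rpm at 25 °C and 10.8 ± 1.83 rpm at 20 °C, while its mutant levels were 32.4 ± 2.70 rpm at 25 °C and 30.2 ± 2.49 rpm at 20 °C. Y116F11A.1 in mutants was at 63.2 ± 6.58 rpm at 25 °C and 112 ± 3.00 rpm at 20 °C, and in wild type at 42.8 ± 3.29 rpm at 25 °C and 36.7 ± 6.14 rpm at 20 °C. F52D2.6 was lower at 25 °C in both strains, with 14.04 ± 0.329 rpm at 25 °C and 29.4 ± 0.327 rpm at 20 °C in mutants, and 15.03 ± 1.63 rpm at 25 °C and 33.0 ± 3.27 rpm at 20 °C in wild type. Y57G11C.5 in mutants was 6.34 times as high at 25 °C as at 20 °C.

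Secondary siRNAs were compared on the same genes. WAGO class 22G values were listed for 79 of the members, and 26 passed the filter at 20 °C and 31 at 25 °C. The library protocol describes no step that removes 5′ triphosphates, which 22G siRNAs carry and 26G siRNAs lack, so the 22G level is likely to be understated, and levels and ratios of 22G siRNAs are read only for their differences between libraries. Their sum was 159.8, 153, 146 and 147 rpm in mutants and 152, 143, 131 and 136 rpm in wild type at 25 °C (exact permutation p = 0.114, n = 4 each), overlapping, and 143, 163 and 157 rpm in mutants and 76.9, 84.7 and 87.0 rpm in wild type at 20 °C (exact permutation p = 0.1, n = 3 each), not overlapping. Across temperatures the mutant sums overlapped, while the wild-type mean at 25 °C was 1.69 times that at 20 °C with no overlap. The log2 ratio of 26G to 22G siRNAs was 2.98 ± 0.06 in mutants and 2.77 ± 0.04 in wild type at 25 °C (SD, n = 4 each; difference 0.21, exact permutation p = 0.029), and 3.32 ± 0.07 in mutants and 3.43 ± 0.08 in wild type at 20 °C (SD, n = 3 each; difference -0.12, exact permutation p = 0.2).

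Gene by gene after rescaling, 6 of the 26 secondary siRNA values rose at 20 °C and 0 fell (limma; 2 at an unadjusted p under 0.05), against the backgrounds of 2.06% and 3.84% above. Of the 6, those of Y116F11A.1, F55C9.3 and C01A2.1 had passed the level filter only through the mutant libraries, and so are described without a test. At 25 °C the direction again depended on the scaling. After rescaling 1 of 31 rose and 16 fell, against 33.6% and 39.3%, on rpm as deposited 9 rose and 4 fell, against 51.9% and 13.3%, and with CSR class 22G size factors 15 rose and 0 fell (0 unadjusted), against 58.3% and 3.9%. Of the 16 that fell after rescaling, those of sma-1 had passed the filter only through the wild-type libraries. Y116F11A.1 22G siRNAs were at 3.47, 3.18 and 3.02 rpm in mutants, against 0.97, 0.45 and 0.88 rpm in wild type at 20 °C. The values at 25 °C were 4.46, 3.33, 3.87 and 3.91 rpm in mutants, against 6.23, 5.74, 6.68 and 5.04 rpm in wild type (-1.17 ± 0.16 after rescaling, adjusted p = 3.49e-07). The strains stood apart in opposite directions, also as deposited. The same gene had 16.4 ± 2.33 reads of 26G siRNA per read of 22G siRNA in mutants and 7.27 ± 0.558 in wild type at 25 °C, and 35 ± 2.34 in mutants and 55.8 ± 33.0 in wild type at 20 °C.

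F39E9.7 22G siRNAs were at 5.86, 6.84 and 5.57 rpm in mutants, against 1.19, 1.73 and 2.40 rpm in wild type at 20 °C (1.42 ± 0.24, adjusted p = 4.68e-05). At 25 °C they were at 6.66, 5.54, 5.86 and 7.10 rpm in mutants, against 8.98, 8.48, 6.05 and 7.75 rpm in wild type, overlapping as deposited (-0.88 ± 0.14 after rescaling, adjusted p = 4.90e-06). Y17D7C.3 22G siRNAs were at 25.8, 30.7 and 30.5 rpm in mutants, against 9.14, 14.3 and 10.9 rpm in wild type at 20 °C (0.99 ± 0.15, adjusted p = 8.99e-06), and at 25.9 to 28.4 rpm in mutants against 25.6 to 27.2 rpm in wild type at 25 °C (-0.54 ± 0.09 after rescaling, adjusted p = 7.39e-06). The secondary siRNAs of E01G4.5 also rose at 20 °C (0.87, adjusted p = 0.0023). Those of F55C9.3 averaged 1.86 rpm in mutants and 0.47 rpm in wild type at 20 °C, and those of C01A2.1 averaged 2.52 rpm in mutants and 0.687 rpm in wild type. The E01G4.5 26G siRNAs had a log2 fold change of 0.07 at 20 °C (adjusted p = 0.837). T05E12.10 22G siRNAs were called at neither temperature (0.04 at 25 °C, adjusted p = 0.718, and 0.26 at 20 °C, adjusted p = 0.341). The secondary siRNAs of Y17D7B.4, which passed the filter at 25 °C only through the mutant libraries, were at 2.5, 1.95, 2.53 and 2.07 rpm in mutants, against 0.52, 0.45, 0.35 and 0.43 rpm in wild type at 25 °C, with no overlap, while the 26G log2 fold change of that gene was -0.001 (adjusted p = 0.997).

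**Figure D5:**
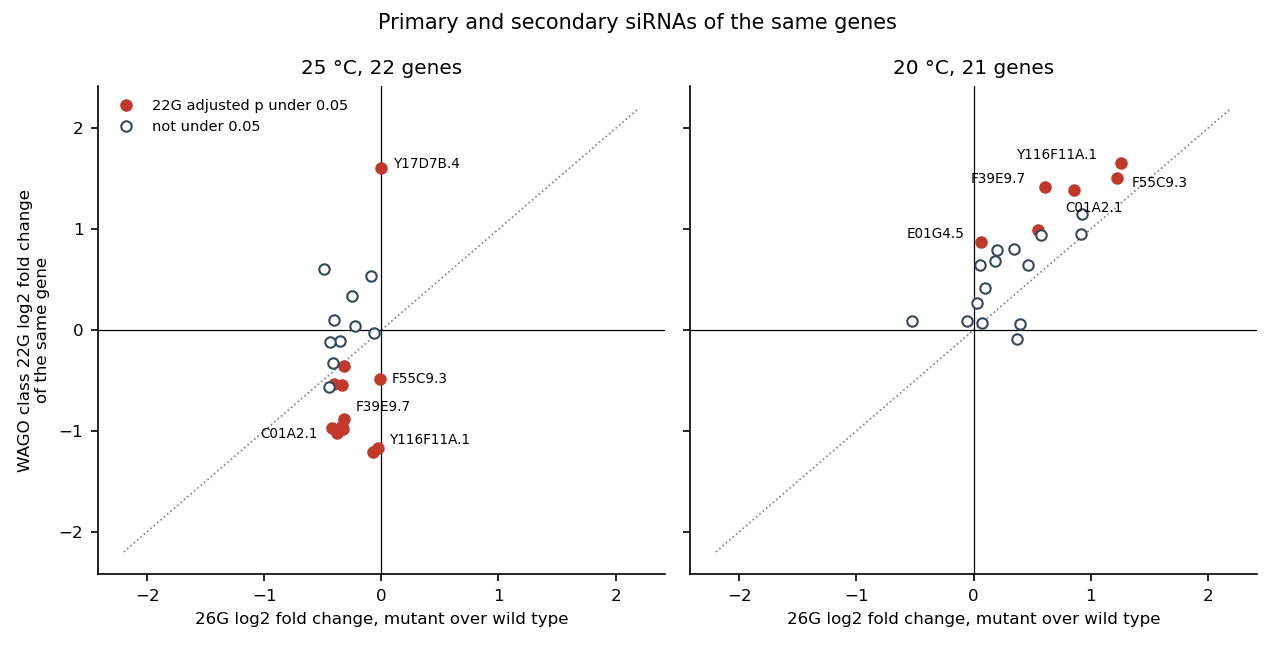
Log2 fold change (mutant over wild type) of WAGO class 22G siRNAs against that of ERGO class 26G siRNAs of the same gene, rescaled, for 22 genes at 25 °C (left) and 21 at 20 °C (right); filled points passed the threshold for the 22G siRNAs, which includes genes above the level filter in mutants alone, and the dotted line marks equal change. At 20 °C 18 of 21 genes lie above the line, and at 25 °C 10 of 22 do. Of the 26 22G values tested at 20 °C, 8 passed the level filter only through mutants and 1 only through wild type. Of the 31 tested at 25 °C, 4 passed only through mutants and 1 only through wild type. Passing through mutants alone favours points above the line, so these positions are a description and were not tested.

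C40A11.10 is annotated as the miRNA gene mir-8199, at chrII:2136552-2137329 on the minus strand, and carries both antisense 26G siRNAs and sense reads. Its 26G siRNAs were at 21.6, 23.02 and 22.2 rpm in mutants, against 7.19, 10.8 and 9.86 rpm in wild type at 20 °C (0.91 ± 0.15, adjusted p = 5.30e-05), and its sense precursor reads were at 54.5, 58.3 and 46.1 rpm in mutants, against 16.8, 20.4 and 24.4 rpm in wild type (1.01 ± 0.13, adjusted p = 4.42e-07). Neither overlapped between strains at 20 °C. The mature miR-8199-5p was at 22.1, 20.7 and 19.4 rpm in mutants, against 6.70, 13.2 and 9.76 rpm in wild type (0.75 ± 0.18, adjusted p = 0.0052). At 25 °C the 3 log2 fold changes after rescaling were -0.07 for the 26G siRNAs, -0.002 for the precursor reads and -0.06 for the mature miRNA (adjusted p = 0.588, 0.985 and 0.652).

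Among 37 genes of the siRNA pathways, 25 had siRNA values listed, mostly as CSR class 22G targets, and 20 were tested at 20 °C and 21 at 25 °C. At 20 °C 0 rose and 0 fell (limma; 1 and 1 at an unadjusted p under 0.05). At 25 °C, after rescaling, 0 rose (0 unadjusted) and 20 fell, where 39.3% of all features fell. The median log2 fold change of the 21 was -0.94. Size factors from the CSR class centre the typical CSR feature, and against them rescaling shifted log2 fold changes at 25 °C by a median of -0.85. This shift is a median over all features, and the median of the pathway genes was near it. Whether the fall was particular to the pathway genes was not tested. All these values were of siRNAs against the genes and not of the genes' own transcripts. The siRNAs against ergo-1, which encodes the Argonaute of the class, had rescaled log2 fold changes of -1.21 at 25 °C (adjusted p = 8.80e-05) and 0.03 at 20 °C (adjusted p = 0.967). Those against rrf-3, the polymerase gene, had -0.999 at 25 °C (adjusted p = 1.47e-06) and -0.19 at 20 °C (adjusted p = 0.668). The helicase gene eri-6 is itself listed as a member, at means of 0.018 rpm in mutants and 0.013 rpm in wild type at 25 °C and at 0 in both strains at 20 °C, less than the value of 1 read per library.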

How the data were processed

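Small RNA libraries (NEBNext Multiplex Small RNA kit) from 14 samples were quantified by the authors with tinyRNA 1.5.0 (fastp, bowtie) against the C. elegans WS279 genome release, and deposited as rpm per feature and class, with 1 table for each of 2 temperatures. ERGO class 26G siRNAs were antisense, perfectly matched 26 nt reads beginning with G. WAGO and CSR class 22G siRNAs were those of 21 to 23 nt, and precursor values counted sense reads of any length. In the 20 °C table the class column stood 1 line off and was moved back, after which all 23869 classes equalled those at 25 °C. Whole reads could be recovered for low piRNA values but not for nearly all genes, so no count test was run.

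Rpm were divided by median-of-ratios size factors within each table, a pseudocount of 0.1 rpm was added, and features averaging 1 rpm or more were fitted on the log2 scale with limma 3.58.1 (R 4.3.3; trend and robust options), with Benjamini-Hochberg adjustment over all features. Fold changes on this scale understate those of low features. Against deposited rpm, rescaling shifted the log2 fold change of the typical feature by -0.57 (25 °C) and -0.36 (20 °C). For totals, ratios and shares, exact permutation tests (two-sided) were used. The script was tested on simulated data. No replicate pair agreed within sampling noise. Alternatives changed the filter (5 rpm or none), pseudocount (1 or 0.01), scaling, variance model, replicate block and single libraries.

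Members named were the 10 most abundant, the 5 largest changes in each direction at each temperature with no overlap, and the 5 largest interactions; C40A11.10, C01A2.1, E01G4.5, Y17D7B.4, sma-1 and H16D19.7 were named after their values were seen. Members and lists were chosen with earlier results of these data known. Sequences are not used here.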

Additional observations from a re-analysis of the deposited data

Results flagged for a closer look

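After rescaling, the strain difference of 23 members was more negative at 25 °C than at 20 °C in the interaction test. Of all features, 22.5% were more negative and 15.5% more positive. With the CSR class 22G size factors 3 members were more negative and 4 more positive (1.64% and 43.3% of features). Among the members described above, the rescaled interaction on the log2 scale was -0.95 for Y17D7C.3, -0.93 for F39E9.7, -1.29 for Y116F11A.1, -0.59 for E01G4.7, -1.27 for T16A1.9, -0.79 for F39E9.10, -1.24 for F55C9.3, -1.19 for F55C9.5, -1.38 for C11G6.2, -1.48 for WBGene00194667, -1.06 for Y43F8B.9, -1.69 for T02G6.4, -0.54 for Y116A8B.1 and -0.83 for Y105C5A.14. Temperature, growth time and batch cannot be told apart in these values. No library stood far from the other 3 of its group at 25 °C in any of the 44 sets examined (18 members and 4 class measures in each strain) by Dixon's test at the 95% level, where chance picks out about 1 in 20.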

How the results depend on the processing

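Each group held 3 or 4 libraries, and members near 1 rpm rest on few reads. Counts below are higher and lower in mutants, or more positive and more negative at 25 °C for the interaction. On rpm as deposited they were 30 and 0 at 25 °C and 38 and 0 at 20 °C. On the piRNA total, 34 members changed at 25 °C, 33 of them lower, and 39 had an interaction, all negative. With CSR class 22G size factors they were 41 and 0 at 25 °C, 13 and 0 at 20 °C, and 4 and 3 (7 in all) for the interaction. On the ERGO class total, chosen after seeing the data, they were 2 and 1 (3 in all) at 25 °C, 10 and 3 at 20 °C, and 3 and 7 (10 in all) for the interaction. Without the trend and robust options they were 8 and 0 at 20 °C. With no filter 5 were higher at 25 °C and 1 interaction was positive, and of members of at least 5 rpm 0 were higher. Shares of all features are not given for the fits without these options or with another filter. The unadjusted counts stand with the results above, and the cause of each change was not tested.

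At 25 °C the log2 fold change of 15 members described above turned positive on deposited rpm or CSR size factors, as follows: Y17D7C.3 0.19 and 0.48, T05E12.10 0.37 and 0.65, F39E9.7 0.27 and 0.55, Y116F11A.1 0.56 and 0.85, K02E2.6 0.34 and 0.63, E01G4.7 0.18 and 0.47, T16A1.9 0.24 and 0.53, F39E9.10 0.27 and 0.56, F55C9.3 0.57 and 0.86, F55C9.5 0.52 and 0.81, WBGene00194667 0.48 and 0.76, Y116A8B.1 0.14 and 0.43, and Y105C5A.14 0.15 and 0.43. On CSR size factors alone it was 0.19 for F52D2.6 and 0.27 for T02G6.4. On the class total, T05E12.10 and K02E2.6 were at 0.049 and 0.026 at 25 °C and at -0.38 and -0.34 at 20 °C. The interaction turned positive on CSR size factors and on the class total for T05E12.10 (0.46 and 0.43), E01G4.7 (0.12 and 0.092), F52D2.6 (0.56 and 0.53) and Y116A8B.1 (0.18 and 0.15).

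Leaving out single libraries gave 16 to 22 members changed at 25 °C (1 to 2 higher, 15 to 21 lower), 13 to 18 at 20 °C (12 to 17 higher, 1 lower) and 20 to 26 interactions (0 positive). The class total of mutants was then 20.34% to 27.26% higher at 25 °C and 60.75% to 76.92% higher at 20 °C. The log2 ERGO to ALG ratio differed by -3.016 to -2.826 at 25 °C and by -0.3872 to 0.04978 at 20 °C, turning positive without wild-type replicate 2 or 3. The log2 ERGO to 22G ratio differed by 0.1849 to 0.2256 at 25 °C and -0.1591 to -0.07923 at 20 °C. The share of the 5 most abundant members differed by -1.081 to -0.8123 percentage points at 25 °C (exact permutation p = 0.0571 without mutant replicate 2 or 3) and 0.0773 to 0.3381 at 20 °C. Without Y17D7C.3 it differed by 0.3947 at 25 °C and -1.262 at 20 °C. The class total at 25 °C differed by -16.9% after rescaling and -35.38% on the piRNA total, and that at 20 °C by 33.05% and 40%.

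Equal replicate numbers did not mark paired libraries, since deviations from the group means correlated at -0.0264 to 0.0292 at 25 °C and -0.148 to 0.102 at 20 °C. With a replicate block the counts were 1 and 17 at 25 °C, 16 and 1 at 20 °C and 0 and 22 for the interaction, and the class total difference at 25 °C of 24.68% had a paired exact permutation p of 0.125, the smallest that 4 pairs allow.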
